A study of Caenorhabditis elegans with 2 samples.

Results

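The genes described here are the C-type lectin and lysozyme genes of Caenorhabditis elegans, examined for regions bound by the transcription factor PHA-4. The families were chosen with earlier results of these data known. Membership was then set by name, as every protein-coding gene called clec-, lys- or ilys- in the WBcel235 annotation. That gives 256 of 19973 protein-coding genes. Of these, 240 are clec genes, 10 are lys genes and 6 are ilys genes. Chromatin immunoprecipitation followed by sequencing (ChIP-seq) was carried out on whole L4 larvae, the last larval stage, of strain OP37, with both sexes pooled and the ages not given. The strain carries unc-119(ed3) on chromosome III and wgIs37, labelled as an insertion that targets pha-4. The labels give the protein pulled down as eGFP-pha-4 and the antibody as pha-4, and not the cells in which the tagged protein is made. There was 1 group with 2 biological replicates, and every library came from the same strain and stage. All values below therefore describe 1 condition, and no contrast between conditions could be tested.

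C-type lectins are proteins with a fold that in many family members binds sugars, and most worm clec genes encode secreted or membrane proteins. Lysozymes cut the peptidoglycan of bacterial cell walls. The lys genes encode lysozymes related to those of protists, and the ilys genes encode invertebrate-type lysozymes. Many members of these families are expressed in the intestine, and several are known for changing with bacterial infection. Intestinal genes are typically controlled by GATA factors, above all ELT-2, while PHA-4 is the FoxA (forkhead) factor that specifies the pharynx and also acts in the intestine. Larvae were taken whole, so a region bound strongly in few cells and one bound weakly in many cannot be told apart.

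The files list regions with a summit, the position of highest signal, and a signal value given by the authors whose scale is not stated. The pooled list held 30000 regions with signals from 2.41 to 226 (median 5.07), and replicates 1 and 2 held 21039 and 20807. By their labels, these 3 lists hold peaks together with background. The list thresholded by the irreproducible discovery rate (IDR), which holds the regions the authors kept, had 1484 regions, the same as the strongest 1484 of the pooled list, down to a signal of 25.9. No read counts are given, so the depth of the libraries is unknown. Pooled signals ran above those of either replicate at most of these genes, so they are not set against replicate values. Replicate values are given side by side as deposited. Their lists had similar medians (4.11 and 3.8), but whether they share a scale is not stated, so a ratio between them is a description of the 2 lists only. Regions were given to genes by position, wherever a summit fell between 1000 bp upstream and 200 bp downstream of a transcript 5' end, here called the promoter window. The strongest such region stands for the gene. A replicate's value for it is that of a region with its summit within 150 bp, and none means that no such region was listed.

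The summit sequences of 7 of the 9 members with the strongest regions are shown first, because the sites in them are compared further on. The other 2 of these 9, clec-87 and clec-53, rank just after clec-78 and are not printed, and their summits held neither a forkhead nor a GATA site. Each line gives the plus strand of ce11 from 50 bp before to 50 bp after the summit of the gene's strongest pooled region. Capitals mark forkhead sites (T, then A or G, then TT, then G or T, then A or G, then C or T) and GATA sites (A or T, then GATA, then A or G) on either strand. Sites on the minus strand appear in reverse, so that TGATAA reads TTATCA.
clec-126 (chrII:3519055-3519155): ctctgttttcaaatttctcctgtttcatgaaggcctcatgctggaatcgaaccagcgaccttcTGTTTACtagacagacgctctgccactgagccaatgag
clec-78 (chrIV:3988760-3988860): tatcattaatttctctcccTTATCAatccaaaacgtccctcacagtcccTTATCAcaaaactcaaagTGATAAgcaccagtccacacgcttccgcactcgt
lys-2 (chrV:10281553-10281653): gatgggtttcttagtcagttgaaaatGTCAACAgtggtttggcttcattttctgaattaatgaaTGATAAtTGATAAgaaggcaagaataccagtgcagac
clec-186 (chrIV:12865993-12866093): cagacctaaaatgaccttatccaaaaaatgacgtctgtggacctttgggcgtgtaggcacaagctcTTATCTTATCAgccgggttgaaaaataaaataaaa
clec-218 (chrV:8307206-8307306): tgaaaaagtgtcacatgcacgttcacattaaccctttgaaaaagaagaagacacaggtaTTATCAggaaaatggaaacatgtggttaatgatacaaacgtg
clec-170 (chrIV:1266304-1266404): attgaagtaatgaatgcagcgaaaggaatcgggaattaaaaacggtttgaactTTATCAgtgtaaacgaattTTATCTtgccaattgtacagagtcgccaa
lys-8 (chrII:5585910-5586010): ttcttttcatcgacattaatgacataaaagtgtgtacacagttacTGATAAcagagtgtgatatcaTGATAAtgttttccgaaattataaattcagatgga
The first sequence, of the only member in the IDR list, holds a forkhead site and no GATA site. The other 6 hold from 1 to 3 GATA sites each, and of these only lys-2 also holds a forkhead site. The sequences printed are thus not typical, since 7 of the 20 distinct summits in the strongest 10000 regions (35.0%) held neither kind. Those were the summits of clec-87, clec-53, clec-196, clec-89, clec-142, clec-178 and ilys-4.

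Lectin and lysozyme genes were rarely tied to a strong region. Of the 256, 1 had a summit of the IDR list in its window (0.391%, exact 95% interval 0.00989 to 2.16%), against 8.29% of the 10640 other named protein-coding genes. Among the strongest 6000 pooled regions, 10 members had a summit (3.91%), against 24.4%. Among the strongest 10000 the count was 21 (8.2%, 5.15 to 12.3%), against 32.3%. Among the strongest 20000 it was 51 (19.9%), against 43%, and in the whole pooled list 69 (27.0%, 21.6 to 32.8%), against 50.5%. The members' share stayed below that of other genes at each of these depths, and the remaining 187 members had no pooled region. Intervals here and below cover the counting of genes or summits alone. Counted in each replicate's own list, 48 members (18.8%) had a summit in replicate 1, against 42.4%, and 53 (20.7%) in replicate 2, against 43.1%. Neighbouring members can share a region, and genes are not replicates, so no test was made of these shares.

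The families differed in how they filled up with depth. The clec genes stood lowest, with 16 of 240 (6.67%) among the strongest 10000 regions and 60 in the whole list. Of the 10 lys genes, 3 had a summit among the strongest 10000 and 7 (34.8 to 93.3%) in the whole list. Of the 6 ilys genes, 2 (33.3%) had one at either depth. With 10 lys genes the intervals are wide, and they include the shares of other named genes (32.3% and 50.5%).

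**Figure D1:**
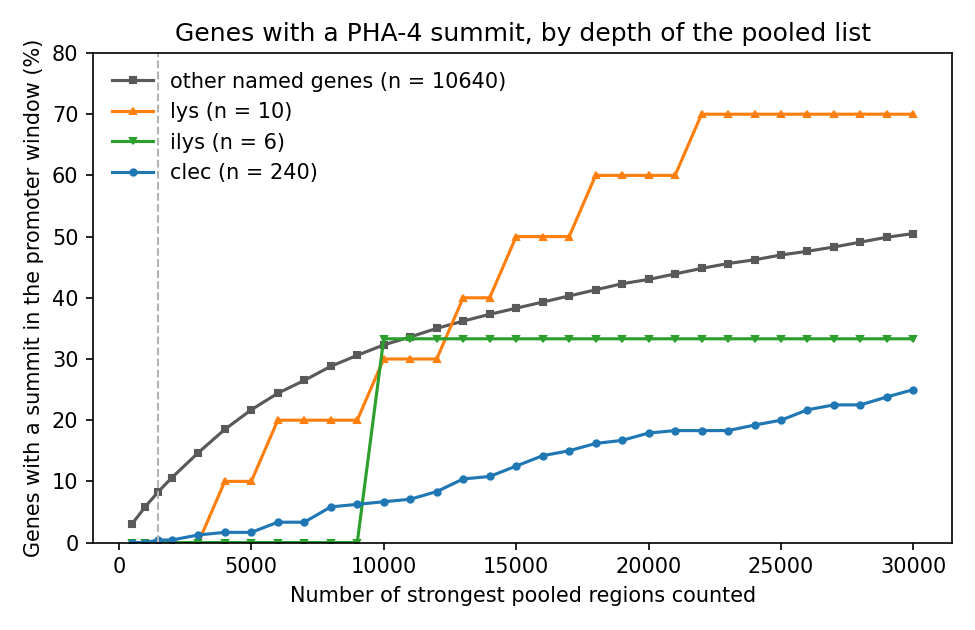
Share of genes with a summit in the promoter window (y axis, %) against the number of strongest pooled regions counted (x axis), for the clec, lys and ilys genes and the other named protein-coding genes, with the IDR list's size as a dashed line. The clec line stays below that of other named genes throughout and ends at 25% against 50.5%, while the lys line crosses it and ends at 70%, in steps of single genes.

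The member in the IDR list was clec-126 (WBGene00021117, II:3519494 to 3520712, plus strand). Its region at chrII:3518950-3519259 had a pooled signal of 29.5 at rank 1063, with 12.9 in replicate 1 and 14.5 in replicate 2. The summit, 389 bp upstream of the 5' end, lay inside an annotated transfer RNA gene (WBGene00023162, II:3519086 to 3519157), so the region cannot be given to clec-126 alone. Of the 1484 summits in the IDR list, 4 (0.27%) lay inside any of the 612 annotated transfer RNA genes. The share that their length alone would give was not computed. With each replicate's own strongest 1484 regions, replicate 2 gave clec-126 at rank 1126, against 7.89% of other named genes. Replicate 1 gave none (0 of 256, with an exact upper bound of 1.43%, or 1.17% taken as 3 counts of 256), against 7.78%, and there clec-126 ranked 1929.

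The next members fell short of the IDR list. The strongest was clec-78 (WBGene00018547, IV:3989102 to 4014235), with a pooled signal of 22.2 at rank 2105, and 13.7 in replicate 1 against 5.4 in replicate 2. Its summit lay 292 bp upstream, outside protein-coding genes, and in no other coding gene's window. It was the highest-ranked member in replicate 1, at 1691. The region of clec-87 (I:10184462 to 10185520) had a pooled signal of 20.4, with 11.2 in replicate 1 and 5.82 in replicate 2, and lay in the window of rsa-1 as well. That of clec-53 (I:3871474 to 3873402, signal 18.0) lay in an intron of uba-5 and had 13.0 in replicate 1 and none in replicate 2. The values of clec-78 and clec-87 were higher in replicate 1, and that of clec-53 rests on replicate 1 alone.

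Among the lysozymes, lys-2 (WBGene00003091, V:10280307 to 10281474, minus strand) had the strongest region. Its pooled signal was 16.6 at rank 3507, and the replicates gave 4.22 and 8.56. The summit lay 129 bp upstream, in no other coding gene's window. The neighbours on either side had weaker regions. At lys-3 the signal was 8.07, in its 5' UTR, with 6.46 in replicate 1 and none in replicate 2. At lys-1 it was 5.15, with 4.77 in replicate 2 and none in replicate 1. The region of lys-8 (II:5586178 to 5587651) had a signal of 12.2, with 5.45 in replicate 1 and 7.41 in replicate 2, outside protein-coding genes. The second lysozyme cluster, on chromosome IV from 11621429 to 11627947, holds lys-4, lys-5 and lys-6, and its pooled signals were lower at 4.31, 3.54 and 5.85. Only lys-6 of these had a region at the same place in both replicates (3.67 and 3.49). No region was listed in any of the 3 lists at lys-7, lys-9 or lys-10. The lysozyme genes with matched regions in both replicates were thus lys-2, lys-6 and lys-8.

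The invertebrate-type lysozymes gave 2 weak regions. The region of ilys-4 (signal 8.01, 2.83 in replicate 2 and none in replicate 1) lay in an intron of ilys-4 that atic-1 overlaps. That of ilys-5 (signal 7.56, 6.53 in replicate 1 and none in replicate 2) lay in an exon of ilys-5. The adjoining genes ilys-1, ilys-2 and ilys-3, on IV from 2464456 to 2471449, and ilys-6 had no region in any list. In worms ilys-3 is known to act in the digestion of bacteria.

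**Figure D2:**
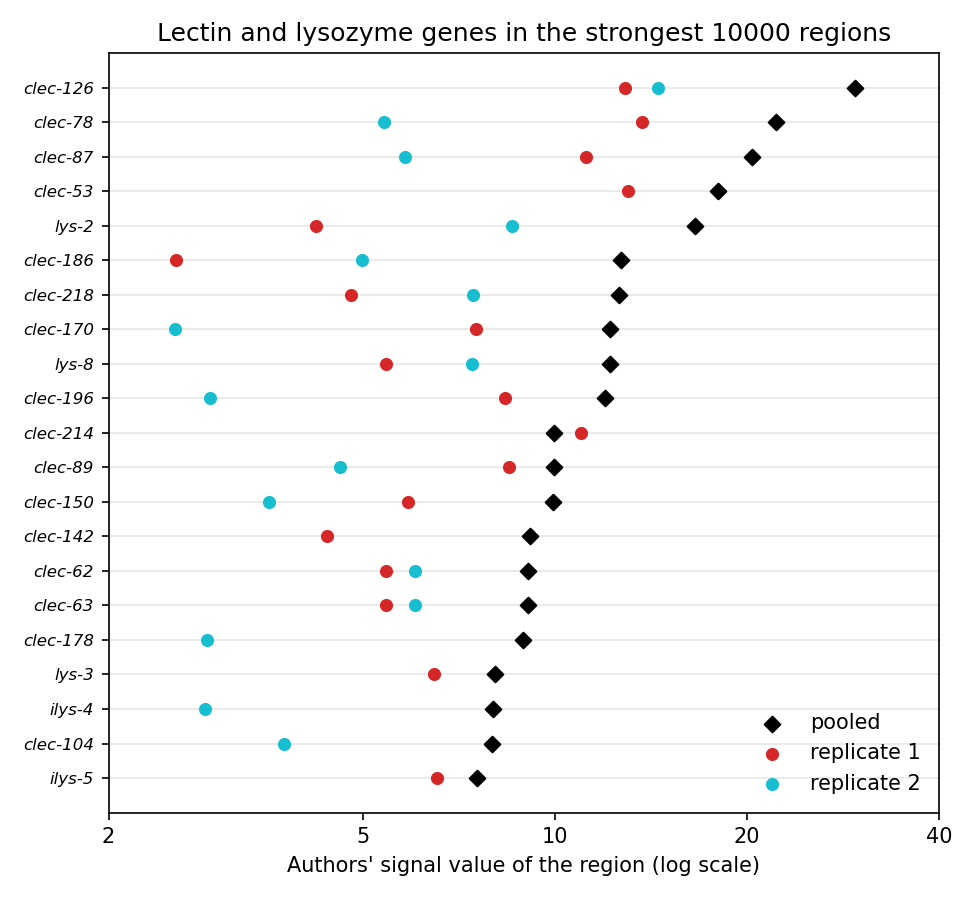
The authors' signal value (x axis, log scale) of the strongest pooled region of each of the 21 lectin and lysozyme genes within the strongest 10000, with the value of each replicate's region whose summit lay within 150 bp. Among the 13 genes found in both replicates the replicate points run from 2.54 to 14.5, and 8 genes show a single replicate point.

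Few members had a region at the same place in both replicates. Of the 69 with a pooled region, 18 (26.1%) had a region within 150 bp of the summit in both replicates, 14 in replicate 1 alone, 21 in replicate 2 alone and 16 in neither. For other named genes the share in both was 51.7%. Set by rank, the shares lay closer. Among members in the strongest 10000 it was 13 of 21 (61.9%), against 77.2% of other genes, and past that rank 5 of 48 (10.4%), against 6.69%. For the 18, the log2 ratio of the signal in replicate 1 to that in replicate 2 had a median of 0.12 and an SD of 0.83, and 5 members were more than 2-fold apart. The members furthest towards replicate 1 were clec-170 (log2 ratio 1.57), clec-196 (1.54), clec-78 (1.35), clec-86 (1.21) and clec-87 (0.95). Those furthest towards replicate 2 were lys-2 (-1.02), clec-186 (-0.97), clec-218 (-0.63), lys-8 (-0.44) and clec-126 (-0.17). A summit anywhere in the window in both replicates was found for 20 members (7.81%), against 32.7% of other genes. Another 27 members had a summit in 1 replicate's list and none in the pooled list, led by clec-61 with 6.04 in replicate 1. In all, 160 of the 256 had no summit in any of the lists.

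The other members in the strongest 10000 were clec genes with pooled signals from 7.98 to 12.7. At clec-186 the signal was 12.7, with 2.55 in replicate 1 and 4.99 in replicate 2, and the summit lay 66 bp upstream. At clec-218 it was 12.6, with 4.79 and 7.44, in a window shared with W02D7.8. Both were higher in replicate 2. The clec-170 region, 512 bp upstream, had 12.2, with 7.53 and 2.54. That of clec-196, in its own coding exon, had 12.0, with 8.35 and 2.88. Both of these were higher in replicate 1. Several regions lay in other genes, where the tie to a lectin gene is one of position only. Those were clec-89 (9.98, intron of unc-89), clec-142 (9.15, coding exon of mrpl-10) and clec-178 (8.91, 5' UTR of skn-1, a stress response regulator). The region of clec-214 (9.98) was shared with folt-3 and had 11.0 in replicate 1 and none in replicate 2. The neighbouring lectin genes clec-62 and clec-63, on opposite strands, shared a region of 9.09, with 5.44 and 6.05. At clec-150 the summit lay 3 bp upstream and the signal was 9.92, with 5.9 and 3.57. At clec-104 the region (7.98) lay 998 bp upstream, at the edge of the window, and was shared with ciao-1. Just past rank 10000 stood clec-168 (7.33), clec-207 (6.62), clec-139 (6.55), clec-80 (6.47) and clec-140 (6.2), so the values fell without a step there.

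Most summits lay upstream of the gene, as they did at other genes. Of the 69 strongest summits, 61 (88.4%) lay upstream of the 5' end, against 90.0% at other named genes. Within 300 bp upstream lay 27 (39.1%), against 47.9%, and the median was 292 bp upstream, against 243 bp. Outside protein-coding genes lay 45 of the 69 summits, while 10 lay in coding exons and 6 in introns. These classes are not given for other genes. The region was shared with another coding gene's window for 15 (21.7%), against 30.8% of other genes.

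The windows of these genes differed from those of other genes, so the shares were also taken among like windows. A single annotated 5' end was found for 231 members (90.2%), against 69.1% of other genes, so the other genes had more sequence in their windows (mean 1528 bp, against 1251 bp). Among genes with 1 annotated 5' end, 17 of 231 members (7.36%) had a summit in the strongest 10000, against 26.6% of other genes. Where no other coding gene's window overlapped, it was 11 of 160 (6.88%), against 25.3%. The lower share of members remained in both subsets.

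The members were spread unevenly over the chromosomes, with 90 on V, 62 on IV, 49 on II, 37 on I, 14 on III and 4 on X. On V, 14 members (15.6%) had a pooled region, against 33.5% of other named genes there. The shares were 35.5% against 50.3% on IV, 38.8% against 49.5% on II, 18.9% against 63.1% on I and 28.6% against 65.9% on III. On X 3 of 4 members had one, against 55.6%, so the lower share was seen on the 5 autosomes. The median distance from a member's 5' end to the nearest IDR summit was 41.6 kb, against 25.5 kb for other named genes. To the nearest of the strongest 10000 pooled summits it was 11.2 kb, against 3.28 kb.

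Many lectin genes stand in tandem groups, here runs of at least 4 members with gaps of at most 10 kb. The 14 groups held 84 members, of which 18 (21.4%) had a pooled region and 3 (3.57%) one in the strongest 10000. Of the other 172 members, 51 (29.7%) and 18 (10.5%) had one. The largest group, 13 genes from clec-40 to clec-33 on V (16839121 to 16869840), had no pooled region. The group of clec-67 to clec-79 on IV (3922165 to 3975721) had 2 of 11, the stronger at clec-72 (5.06). By contrast, 4 of the 5 genes from clec-62 to clec-66 on II (12893062 to 12906644) had a region, with signals of 9.09 or less. How reads that match several places were treated is not given in the sources used here.

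A list of 27 members known from infection studies, chosen with earlier results of these data known, had pooled regions more often than the 27.0% of all members. Of these 27, 17 (63.0%) had a pooled region and 6 (22.2%) one in the strongest 10000, against 50.5% and 32.3% of other named genes. The 6 were clec-87, lys-2, clec-186, clec-218, lys-8 and lys-3. The intestinal lectin gene clec-60, known to be induced by Gram-positive bacteria, had a signal of 5.15 with no region at that place in either replicate. The region of clec-86 (6.08) had 5.65 in replicate 1 and 2.44 in replicate 2, and that of clec-42 (4.61) had 2.97 and 3.04. Pooled signals for the rest were lower, apart from lys-1 above, at clec-65 (4.51), clec-71 (4.05), clec-4 (3.86), lys-5 (3.54), clec-50 (3.05), clec-66 (3.04) and clec-43 (2.42). Like clec-60, the genes clec-71, clec-50, clec-66 and clec-43 had no region at that place in either replicate. Those with no pooled region were clec-7, clec-17, clec-41, clec-52, clec-67, clec-70, clec-82, clec-85, lys-7 and ilys-3.

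Listed genes that regulate the immune response had strong regions more often than these effectors. The list of 33 regulator genes was chosen with earlier results of these data known, and no shares among like windows are given for it. Of these, 20 (60.6%) had a summit in the strongest 10000, against 32.3% of other named genes. In the IDR list 6 had one (18.2%, 6.98 to 35.5%), and the share of other named genes, 8.29%, lies within that interval. The 6 were vhp-1, a phosphatase of the stress kinase pathway (signal 55.8), the bZIP factor genes cebp-1 (45.2) and zip-2 (41.9), hlh-30, a TFEB-like factor (42.8), the FOXO gene daf-16 (34.5) and tir-1, a signalling adaptor (27.5). The kinase gene pmk-1, which lies downstream of tir-1, had no pooled region, and the GATA factor gene elt-2 had one of 18.0. Of 100 genes in 7 other effector families (spp, abf, cnc, fipr, thn, dod and irg), 1 had an IDR region, irg-1 (29.8). Among the strongest 10000 they had 19 (11.8 to 28.1%), where the lectin and lysozyme genes had 8.2%. The collagen genes, another large family of secreted products, had 9 of 156 (5.77%), and the F-box class fbxa had 40 of 170 (23.5%). Of 18 genes used as intestinal, 9 had a summit there (26.0 to 74.0%), and of 17 used as pharyngeal 7 (41.2%, 18.4 to 67.1%). Both intervals include the 32.3% of other named genes. A low share was thus found in collagen genes as well as in clec genes. The intervals of the other effector families and of fbxa (17.4 to 30.6%) also lay below 32.3%. Those effector families differed, with 1 of 29 in fipr, 0 of 11 in cnc and 0 of 5 in thn. The counts were 9 of 31 in spp, 2 of 6 in abf, 3 of 10 in dod and 4 of 8 in irg. A low share was therefore not seen in lectins alone.

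**Figure D3:**
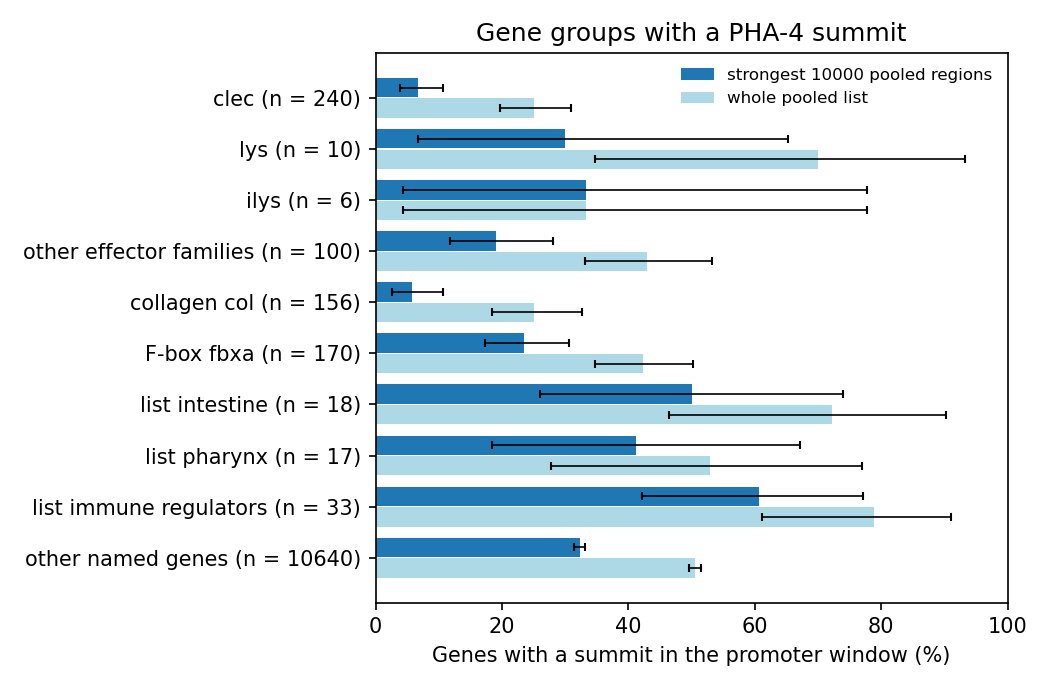
Share of genes with a summit in the promoter window (x axis, %) in the strongest 10000 pooled regions (dark bars) and the whole pooled list (light bars), by gene group, with exact 95% intervals over genes. The clec (6.67% and 25%) and collagen (5.77% and 25%) bars are the shortest pairs, and the immune regulators (60.6% and 78.8%) the longest.

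GATA sites were more common at the members' summits than at those of other genes. The 69 members had 67 distinct strongest summits, of which 30 (44.8%, exact 95% interval 32.6 to 57.4%) had a GATA site no further than 50 bp away. The share was 22.8% for the 4852 distinct summits of other named genes. The form TGATAA alone stood at 25 (37.3%, 25.8 to 50%), against 12.5%. Cut into pieces of the same length, promoter windows of all protein-coding genes held a GATA site in 21.2% and TGATAA in 10.2% of pieces, and the members' own windows in 26.3% and 14.9%. The median share of G and C was 38.6% at the members' summits, 40.6% at those of other genes and 35.6% in the pieces of the members' windows. The members' summits thus held the site more often than the pieces of their own windows, which were richer in A and T.

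The GATA share stood above that of other genes in both rank bands and without shared windows. Among summits in the strongest 10000 it was 11 of 20 (55.0%), against 21.9% at other genes, and past that rank 19 of 47 (40.4%), against 24.1%. The median share of G and C was 37.6% against 42.6% in the stronger band, and 38.6% against 37.6% past it. At regions in no other coding gene's window the GATA share was 24 of 54 (44.4%), against 24.6%. By family, 6 of 7 lys summits held a GATA site, as did 24 of 58 clec summits (41.4%) and neither of the 2 ilys summits. In 6 of the 67 summits TGATAA stood at least 2 times, as at lys-2 and lys-8 above, and in 3 it stood 3 times, at clec-78, clec-168 and clec-258. In other groups, a GATA site lay at 20 of 41 summits (48.8%) of the other effector families, 31 of 66 (47.0%) of fbxa and 6 of 13 (46.2%) of the intestinal genes. It lay at 12 of 39 (30.8%) of the collagen genes and 1 of 8 (12.5%) of the pharyngeal genes. The first 3 of these shares lay near that of the members and the other 2 lay lower, with intervals of 17 to 47.6% and 0.316 to 52.7%. In the IDR list as a whole it stood at 15.0% of summits, and TGATAA at 4.85%.

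Forkhead sites, by contrast, were no more common at the members' summits than at those of other genes. The 7-base consensus was present at 25 of 67 summits (37.3%, 25.8 to 50%), against 37.6% of those of other named genes, 48.2% in the IDR list and 27.9% of promoter pieces of all genes. In the strongest 10000 it lay at 5 of 20 (8.66 to 49.1%), against 43.1%, and past that rank at 20 of 47 (42.6%, 28.3 to 57.8%), against 28.7%. The members' intervals include the share of other genes in either band. At regions in no other coding gene's window, 4 of 12 (33.3%) held the consensus in the strongest 10000, against 44.4%. Past that rank 19 of 42 did (45.2%, 29.8 to 61.3%), against 27.8%, which lies below the interval. The narrow forms TGTTTGC and TGTTTAC, which the consensus includes, lay at 3 of 67 (4.48%, 0.933 to 12.5%), against 11.4% of other genes' summits and 3.2% of promoter pieces. Those 3 were clec-126, whose site is in the transfer RNA gene, clec-261 and clec-169. Both kinds of site stood at 12 of the 67 summits (17.9%, against 9.21%) and neither at 24 (35.8%, against 48.9%). A match of letters is a description of the sequence, and no binding by a GATA factor was measured.

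**Figure D4:**
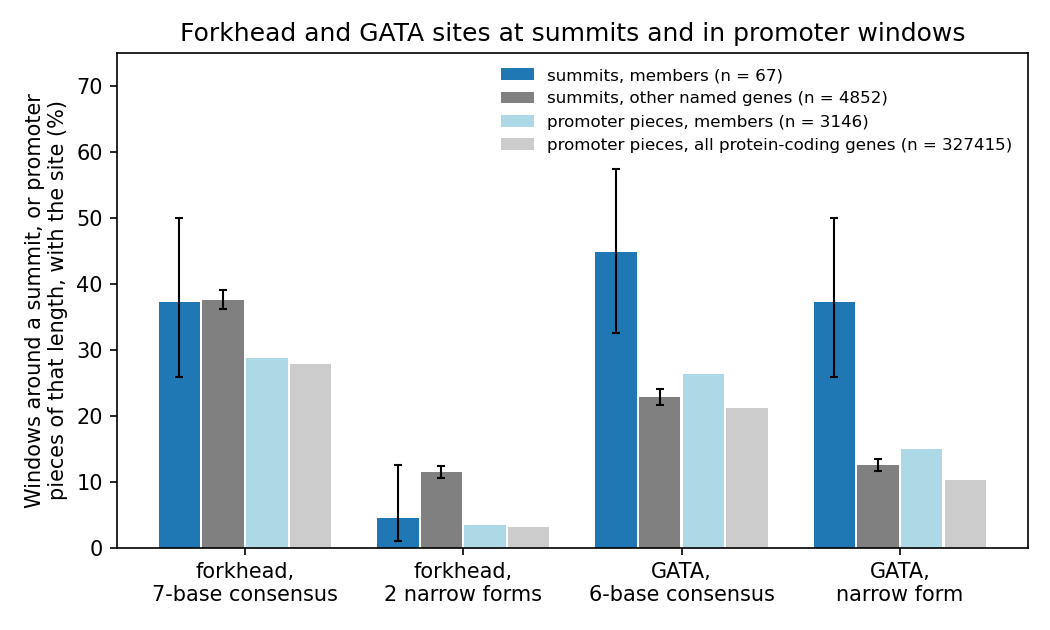
Share of windows reaching 50 bp to each side (y axis, %) that hold a forkhead or GATA site, at the strongest summits of the lectin and lysozyme genes and of other named genes (with exact 95% intervals), and in promoter windows cut to the same length. Over all ranks, the members' summits reach 44.8% against 22.8% for GATA, and 37.3% against 37.6% for the forkhead consensus.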

How the data were processed

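The authors deposited ce11 region lists in narrowPeak layout, with lists for each replicate, for both pooled and for the IDR threshold. Column 7 is the authors' deposited signal score, of unstated scale, and column 10 the summit's offset in bp. Library fragments were 150 to 350 bp, per the labels. The peak caller, the IDR threshold, how control libraries were used and the treatment of reads with several matches are not given in the sources used here. Genes came from Ensembl release 115 (WBcel235, the ce11 assembly) and sequence from the RefSeq WBcel235 genome. Regions were ranked by signal, and a replicate's region was matched when its summit lay within 150 bp. Members and lists were chosen with earlier results of these data known. Genes were named if in the IDR list, among the 20 strongest, a lysozyme, in the infection list, next to a rank limit or furthest apart between replicates. Others (clec-61, clec-72, clec-169, clec-258, clec-261, clec-33, clec-40 and clec-79) were named after their values were seen. Window assignment and site search were tested on simulated data. Shares carry exact (Clopper-Pearson) 95% binomial intervals, and no test was run. Alternatives changed the window, assignment, rank limit, replicate and site. The software was Python 3.11.15 with pandas 2.3.3, NumPy 2.4.6, matplotlib 3.10.9 and SciPy 1.17.1.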

Additional observations from a re-analysis of the deposited data

How the results depend on the processing

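The lower share of members than of other named genes held in the IDR list, the strongest 10000 and the whole list under all alternatives tried. The IDR count was 1 with either other window, with the nearest 5' end alone and with any overlap, and 0 in the strongest 742 regions of that list, against 4.4% of other genes. When either replicate was left out, the other's own list was used, with its strongest 1484 regions in place of the IDR list. The count there ran from 0 to 1, that in the strongest 10000 from 20 to 21 and that in the whole list from 48 to 53. The replicates' lists held 21039 and 20807 regions, against 30000 in the pooled list. Whole-list counts are therefore not at equal depth. Counting the strongest 6000 or 20000 regions in place of 10000 moved 21 members to 10 and 51, by construction. The window of 500 and 100 bp and the nearest 5' end alone each gave 14, against 26.3% and 26.4% of other genes. The 20 members with a summit in both replicates became 9 within each replicate's strongest 10000 and 33 with a window of 2000 and 500 bp. The forkhead share moved from 37.3% to 55.2% within 100 bp of the summit (other genes 58.9%), to 4.48% with the narrow forms and to 25% in the strongest 10000, and for the last the cause was not tested. The GATA share stayed above that of other genes throughout. It was 56.7% against 39.2% within 100 bp of the summit and 55.0% against 21.9% in the strongest 10000. For TGATAA alone it was 37.3% against 12.5%. No paired analysis was possible because there is 1 group. Without read counts, a region that is not listed was not detectable at an unknown depth, which does not show that it is absent.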
